A study of Homo sapiens with 6 samples.

Results

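The genes described here are 10 components of the Hippo pathway and partners of its effectors YAP and TAZ, taken by gene symbol from the 2128 genes of the tables: YAP1, WWTR1, TEAD2, STK3, TAOK3, FRMD6, WWC1, AMOTL2, YWHAZ and DLG5. All 10 were listed once in every library, and all 10 reached 1 TPM in at least 3 libraries, the level needed for testing. The cells were SNU668, an established human line of gastric signet-ring cell carcinoma, and their mRNA was sequenced. The tables hold 3 libraries titled shGPER, from cells with a short hairpin RNA (shRNA) knockdown of GPER1, which encodes an estrogen receptor of the G protein-coupled kind, and 3 libraries titled shControl, whose genotype is given as WT. The labels name no treatment. They do not say whether the control cells carried a hairpin, how many hairpins or clones were used, or whether the 3 libraries of each group stem from different cultures. The p-values therefore measure the spread between these libraries, which may be technical.

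In the Hippo pathway, a cascade of kinases phosphorylates the coactivators YAP and TAZ, which are then held in the cytoplasm by 14-3-3 proteins or degraded. When the cascade is quiet, YAP and TAZ enter the nucleus and switch on genes of growth and adhesion through DNA-binding TEAD factors. Scaffolds at cell junctions and the cell cortex, such as angiomotins, KIBRA and FERM-domain proteins, act on the kinases or bind YAP directly. In breast cancer cells, GPER1 has been linked to YAP and TAZ through G proteins. The tables give RNA levels alone, and not the phosphorylation or location of the proteins.

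Values are TPM, the share of a gene among all transcripts of a library corrected for transcript length, so levels can be set side by side between genes. The listed genes summed to 46584 to 49148 TPM in shGPER libraries and to 61181 to 64236 TPM in shControl libraries, a small part of each library, and TPM keep no read count, so depth is unknown. GPER1 was at 1.83, 2.41 and 2.47 TPM in the shGPER libraries, against 11.04, 11.00 and 10.41 TPM in the shControl libraries. The hairpin group thus had 20.7% of the control level of the targeted gene. Of 12 gastric epithelial markers 2 were in the tables (CDH1 and TFF1), with a summed level of 0.68 to 3.02 TPM in shGPER and 5.08 to 6.67 TPM in shControl libraries. TFF1 made up most of it, at means of 1.80 TPM in shGPER and 5.10 TPM in shControl libraries. The summed level of the 4 of 6 fibroblast markers listed was 31.87 to 33.2 TPM in shGPER and 7.02 to 9.91 TPM in shControl libraries. COL1A1 carried that difference, at 29.4 TPM in shGPER and 2.83 TPM in shControl libraries, whereas LUM (1.20 TPM in shGPER and 2.52 TPM in shControl) and DCN (1.36 TPM in shGPER and 2.73 TPM in shControl) were called lower. For the 2 of 5 endothelial markers listed (CDH5 and ERG) the summed level was 7.52 to 8.71 TPM in shGPER and 2.09 to 2.52 TPM in shControl libraries. CDH5 carried that difference, at 7.29 TPM in shGPER and 1.63 TPM in shControl libraries. ERG overlapped between the groups and was not called (1.01 TPM in shGPER and 0.737 TPM in shControl). None of 5 leukocyte markers was among the listed genes, the other markers were not analysed here, and no listed marker was at 0 in any library. The part of these shifts in the results below was not tested, and in bulk RNA fewer cells of a type and less RNA per cell cannot be told apart.

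Sequences upstream of the genes were taken from RefSeq (GRCh38.p14) as the 250 bases before an annotated start; 7 of the 10 genes were searched, with 11 windows in all, and STK3, YWHAZ and DLG5 were not. They were searched on both strands for GGAATG, the core of the sequence that TEAD factors bind, and its reverse complement CATTCC. It was present in 3 of the 11 windows, against 11.9% of all 35116 windows of that length. The 3 windows with it belong to YAP1, AMOTL2 and TAOK3, which were lower in shGPER libraries. YAP1 and TAOK3 were not called lower once the trend with transcript GC content was removed. Most windows searched belong to genes that were lower, and WWTR1 and FRMD6, also lower, had no motif. Whether the motif goes with direction was not tested. The fourth sequence shown is a window without the motif, of TEAD2, the gene of the TEAD factor that was higher. Capitals mark the motif and each sequence is written 5′ to 3′ on the strand of its gene.
YAP1 (chr11:102110197-102110446, plus strand): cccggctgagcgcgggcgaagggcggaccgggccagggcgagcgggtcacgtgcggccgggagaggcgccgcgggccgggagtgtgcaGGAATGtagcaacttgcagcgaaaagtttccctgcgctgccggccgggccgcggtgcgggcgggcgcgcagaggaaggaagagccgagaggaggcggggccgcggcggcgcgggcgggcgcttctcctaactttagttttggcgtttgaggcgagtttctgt
AMOTL2 (chr3:134374448-134374697, minus strand): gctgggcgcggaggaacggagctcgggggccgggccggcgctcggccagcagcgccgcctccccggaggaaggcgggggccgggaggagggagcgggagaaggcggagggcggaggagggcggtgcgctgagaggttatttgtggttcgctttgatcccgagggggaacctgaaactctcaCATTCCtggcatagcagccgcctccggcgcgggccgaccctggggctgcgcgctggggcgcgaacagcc
TAOK3 (chr12:118190536-118190785, minus strand): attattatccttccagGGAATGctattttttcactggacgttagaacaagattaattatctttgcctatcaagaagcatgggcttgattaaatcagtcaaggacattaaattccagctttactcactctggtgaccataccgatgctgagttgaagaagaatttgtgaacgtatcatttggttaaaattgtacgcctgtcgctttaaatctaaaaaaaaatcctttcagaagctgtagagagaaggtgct
TEAD2 (chr19:49362417-49362666, minus strand): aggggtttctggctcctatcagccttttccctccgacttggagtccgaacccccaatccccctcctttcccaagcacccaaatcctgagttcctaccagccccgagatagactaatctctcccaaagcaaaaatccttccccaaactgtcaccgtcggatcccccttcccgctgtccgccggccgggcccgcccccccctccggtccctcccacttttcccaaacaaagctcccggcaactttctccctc
The motif lay 162 bases before the start of YAP1, 69 bases before that of AMOTL2 and 234 bases before that of TAOK3, and the starts used for AMOTL2 and TAOK3 lie inside the annotated genes. The second windows of AMOTL2, TAOK3 and TEAD2, both windows of WWTR1 and those of FRMD6 and WWC1 did not hold these letters. The GC content of the windows shown was 72% for YAP1, 73.6% for AMOTL2, 36.4% for TAOK3 and 60% for TEAD2. A match is a description of the letters and not evidence of binding.

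Both coactivator genes were lower after GPER1 knockdown and the TEAD partner was higher. The call of YAP1 did not hold when the trend with transcript GC content was removed, and that of WWTR1 depended on how GC content was taken. Of the 10 genes 7 fell and 3 rose (limma on log2(TPM + 1), Benjamini-Hochberg adjusted p between 1.1e-07 and 0.000882), and the 3 shGPER values did not overlap the 3 shControl values for any of them. In the table as a whole 98.4% of the 1651 tested genes were called, 50.6% lower and 47.8% higher, and 97.4% had groups that did not overlap (50.1% lower and 47.3% higher). The table thus held mostly genes that separated the groups, and a call as such is not a result about these 10. Taken gene by gene, an exact permutation test (two-sided) returned p = 0.1 for each of the 10, the smallest that 3 against 3 libraries allow. The sizes, the levels and the balance between the genes are therefore what follows.

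**Figure D1:**
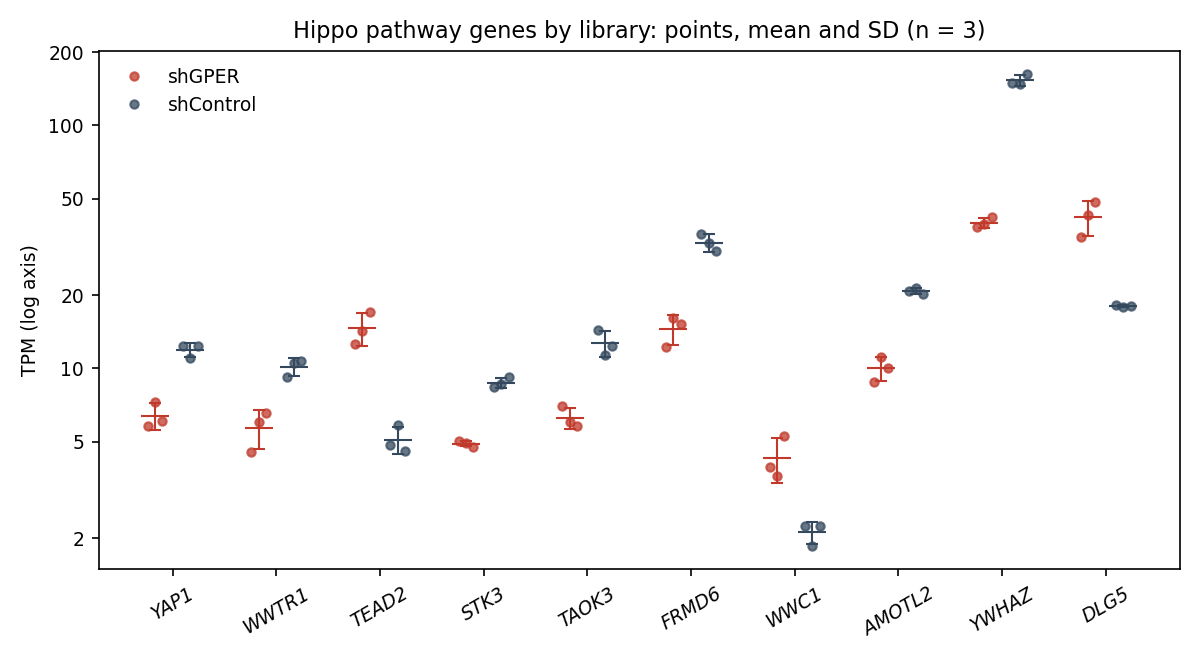
TPM of the 10 genes in each library on a log axis, shGPER left of shControl for each gene; points are libraries, bars the mean and SD (n = 3). TEAD2, WWC1 and DLG5 lie higher in shGPER libraries and the other 7 genes lower, with no overlap.

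YAP1 (ENSG00000137693; chromosome 11, 102110461 to 102233423, plus strand, GRCh38), the main coactivator held back by the pathway, was at 5.78, 7.28 and 6.07 TPM in the shGPER libraries and at 12.32, 10.99 and 12.37 TPM in the shControl libraries. The highest shGPER library stayed well under the lowest shControl library, and 53.6% of the control level was left. The log2 fold change was -0.81 (SE 0.10; limma, adjusted p = 8.64e-05). TAZ, the paralog of YAP, is encoded by WWTR1 (ENSG00000018408; chromosome 3, 149517235 to 149736714, minus strand), which was at 4.52, 6.00 and 6.58 TPM in shGPER and 9.21, 10.53 and 10.76 TPM in shControl libraries. In each group library 1 was the lowest for WWTR1, and 56.1% of the control level was left (log2 fold change -0.75, SE 0.13; limma, adjusted p = 0.000627). With each library's trend with GC content removed, YAP1 was not called (log2 fold change 0.02; limma, adjusted p = 0.895) and WWTR1 was at -0.84, or at 0.11 and not called (limma, adjusted p = 0.495) when the GC content of the longest coding transcript was used. The sum of YAP1 and WWTR1 was 12.1 ± 1.57 TPM in shGPER and 22.1 ± 0.927 TPM in shControl libraries (SD, n = 3 each).

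TEAD2 (ENSG00000074219; chromosome 19, 49340595 to 49362457, minus strand) encodes one of the DNA-binding TEAD factors through which YAP and TAZ reach most of their target genes. It was at 12.59, 14.30 and 16.99 TPM in the shGPER libraries, against 4.84, 5.83 and 4.59 TPM in the shControl libraries. TEAD2 was the member with the largest rise, to 2.88 times the control level (log2 fold change 1.36, SE 0.13; limma, adjusted p = 1.36e-05). On TPM as deposited, the partner and the coactivators changed places in the RNA of a library. TEAD2 came to 1.22, 1.08 and 1.34 times the sum of YAP1 and WWTR1 in the shGPER libraries, against 0.225, 0.271 and 0.198 times in the shControl libraries. That this ratio did not overlap was fixed by the changes of the genes taken singly. With the GC trend removed TEAD2 was still called higher, at 0.64, while YAP1 was at 0.02. WWTR1 was then at -0.84, or at 0.11 by the longest coding transcript. The ratio was not computed without the GC trend. The other TEAD genes were not among the listed genes and were not analysed here, so the total of TEAD transcripts is not known.

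The 2 kinase genes fell with the coactivators. STK3 (ENSG00000104375; chromosome 8, 98371228 to 98942827, minus strand) encodes MST2, a core kinase of the cascade, and was at 5.02, 4.93 and 4.76 TPM in shGPER and 8.40, 8.63 and 9.20 TPM in shControl libraries (log2 fold change -0.72, SE 0.09; limma, adjusted p = 5.46e-05). TAOK3 (ENSG00000135090; chromosome 12, 118149801 to 118372945, minus strand), of the TAO kinases that activate MST kinases, was at 6.99, 6.01 and 5.80 TPM in shGPER and 14.42, 11.36 and 12.35 TPM in shControl libraries (log2 fold change -0.91, SE 0.11; limma, adjusted p = 6.37e-05). Within a library, no shift in the ratio of the coactivators to these kinases could be told from the spread. YAP1 plus WWTR1 over STK3 plus TAOK3 was 0.858, 1.21 and 1.20 in the shGPER libraries and 0.943, 1.08 and 1.07 in the shControl libraries. The ratio of YAP1 to STK3 was 1.15, 1.48 and 1.28 in shGPER and 1.47, 1.27 and 1.34 in shControl libraries, and that of YAP1 to WWTR1 was 1.28, 1.21 and 0.922 in shGPER and 1.34, 1.04 and 1.15 in shControl libraries. All 3 ratios overlapped between the groups. A ratio within a library does not depend on the total to which TPM are scaled, but it does depend on a trend with GC content. With that trend removed neither kinase gene was called lower, STK3 was called higher (log2 fold change 0.20) and TAOK3 was at -0.06, while WWTR1 was at -0.84 and YAP1 at 0.02.

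The upstream scaffolds went both ways. FRMD6 (ENSG00000139926; chromosome 14, 51489100 to 51730727, plus strand), the FERM-domain protein Willin, which acts upstream of the kinases, was at 12.20, 16.12 and 15.16 TPM in shGPER and 35.66, 32.74 and 30.35 TPM in shControl libraries (log2 fold change -1.14, SE 0.11; limma, adjusted p = 1.53e-05). WWC1 (ENSG00000113645; chromosome 5, 168291651 to 168472303, plus strand) encodes KIBRA, a scaffold that promotes phosphorylation by the kinases, and was at 3.92, 3.61 and 5.29 TPM in shGPER and 2.24, 1.86 and 2.25 TPM in shControl libraries (log2 fold change 0.75, SE 0.14; limma, adjusted p = 0.000882). FRMD6 was clearly the more abundant of the pair in both groups, but less so after knockdown. WWC1 came to 0.321, 0.224 and 0.349 times FRMD6 in shGPER libraries and to 0.0628, 0.0568 and 0.0741 times in shControl libraries. WWC1 had the lowest mean of the 10 genes in both groups, although in shGPER library 3 it was above STK3.

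AMOTL2 (ENSG00000114019; chromosome 3, 134355874 to 134375479, minus strand), an angiomotin-family protein that binds YAP and is itself a widely used YAP/TAZ target gene, was at 8.83, 11.14 and 10.04 TPM in shGPER and 20.88, 21.50 and 20.18 TPM in shControl libraries (log2 fold change -0.99, SE 0.09; limma, adjusted p = 1.17e-05). Its level was close to that of the coactivators together in every library. YAP1 plus WWTR1 over AMOTL2 was 1.17, 1.19 and 1.26 in shGPER and 1.03, 1.00 and 1.15 in shControl libraries, without overlap but nearly touching. YWHAZ (ENSG00000164924; chromosome 8, 100916525 to 100953388, minus strand) encodes 14-3-3 zeta, one of the proteins that anchor phosphorylated YAP in the cytoplasm, and of many other clients. It was at 38.15, 39.15 and 41.98 TPM in shGPER libraries, against 149.07, 148.33 and 162.20 TPM in shControl libraries, 26% of the control level (log2 fold change -1.92, SE 0.06; limma, adjusted p = 1.1e-07). This was the largest change among the 10 genes. YAP1 plus WWTR1 came to a larger part of the YWHAZ level after knockdown, at 0.270, 0.339 and 0.301 of its level in shGPER and 0.144, 0.145 and 0.143 in shControl libraries. YWHAZ is the member with most sequence in common with other genes, since 11.3% of the 31-nt words of its transcripts occur in transcripts of other genes, 4.21% in the pseudogene YWHAZP3, against at most 2.66% of all words for the other 9 genes. How far this shared sequence affects its level was not measured. For TEAD2, YAP1, WWTR1, STK3 and DLG5 an annotated gene on the opposite strand overlaps an exon, among them CD37 at TEAD2, and for AMOTL2 the pseudogene RPL39P5 lies on the same strand. The kit keeps strand, but no source used here states that the counting did.

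DLG5 (ENSG00000151208; chromosome 10, 77790791 to 77926526, minus strand), a membrane-associated polarity scaffold reported to act on the pathway in both directions, was at 34.65, 42.82 and 48.29 TPM in shGPER and 18.24, 17.91 and 18.07 TPM in shControl libraries. The coefficient of variation was 16.4% in shGPER and 0.913% in shControl libraries (log2 fold change 1.16, SE 0.11; limma, adjusted p = 1.52e-05). DLG5 and YWHAZ came to like levels after knockdown, with DLG5 at 0.908, 1.09 and 1.15 times YWHAZ in shGPER libraries and 0.122, 0.121 and 0.111 times in shControl libraries. For 7 of the 10 genes the coefficient of variation was smaller in shControl than in shGPER libraries.

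With YAP1 and WWTR1 as coactivators and STK3, TAOK3, FRMD6, WWC1, AMOTL2 and YWHAZ as the 6 restraining components, the mean changes of the classes lay close together as fitted, but not under every setting. The mean log2 change was -0.78 for the coactivators and -0.82 for the restraining components. In each library, the mean log2(TPM + 1) of the coactivators minus that of the restraining components was -0.75, -0.51 and -0.60 in shGPER and -0.75, -0.64 and -0.60 in shControl libraries. The groups overlapped, and their difference of 0.04 was below the pooled SD within groups of 0.10. The average hides a wide range, from -1.92 for YWHAZ to 0.75 for WWC1 among the restraining components. The difference turned sign with the choice of genes, to -0.17 when YWHAZ is left out and -0.24 when DLG5 is counted, and was 0.04 with the 2 kinases alone. It also turned sign with the same genes, to -0.02 at a pseudocount of 0.1 and -0.01 without shGPER library 2, and reached 0.46 with the GC trend of the longest coding transcript removed. No test was made on it, since the genes were chosen with their results known.

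**Figure D2:**
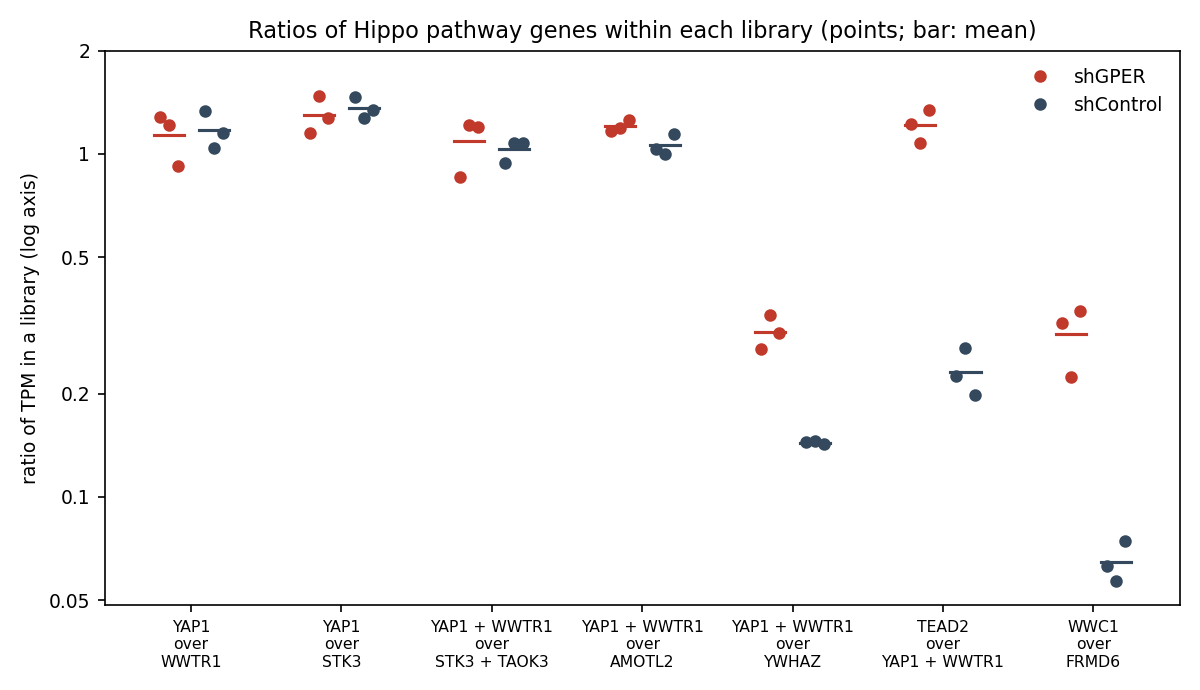
Ratios of TPM within each library on a log axis, shGPER left of shControl; points are libraries and bars the means. Ratios of the coactivators to each other and to the kinases overlap between the groups, whereas TEAD2 over YAP1 plus WWTR1 and WWC1 over FRMD6 stand apart. All are on TPM as deposited, without removal of the trend with GC content, on which such ratios depend.

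The mean levels of the genes lay closer together in shGPER libraries, a difference that rests largely on YWHAZ. In shGPER libraries the mean levels ran from 41.9 TPM (DLG5) to 4.27 TPM (WWC1), a span of 9.81 times. In shControl libraries they ran from 153 TPM (YWHAZ) to 2.12 TPM (WWC1), a span of 72.4 times. Without YWHAZ the span was 9.81 times in shGPER and 15.6 times in shControl libraries. The order in shGPER libraries was DLG5, YWHAZ, TEAD2, FRMD6, AMOTL2, YAP1, TAOK3, WWTR1, STK3 and WWC1, and the values of neighbours overlapped for DLG5 and YWHAZ, for TEAD2 and FRMD6, and for each step from YAP1 down to WWC1. In shControl libraries the order was YWHAZ, FRMD6, AMOTL2, DLG5, TAOK3, YAP1, WWTR1, STK3, TEAD2 and WWC1, and TAOK3 and YAP1 were the sole neighbours that overlapped. Of the 45 ratios between pairs of the 10 genes, 14 overlapped between the groups. A ratio of a gene that fell to one that rose could not overlap, since the groups of each gene did not. Ratios between other genes were not counted, so this is a description of the 10 genes. Of these 14, 13 were between genes that fell (YAP1, WWTR1, STK3, TAOK3, FRMD6 and AMOTL2) and the other was WWC1 to DLG5, at 0.0843 to 0.113 in shGPER and 0.104 to 0.125 in shControl libraries.

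**Figure D3:**
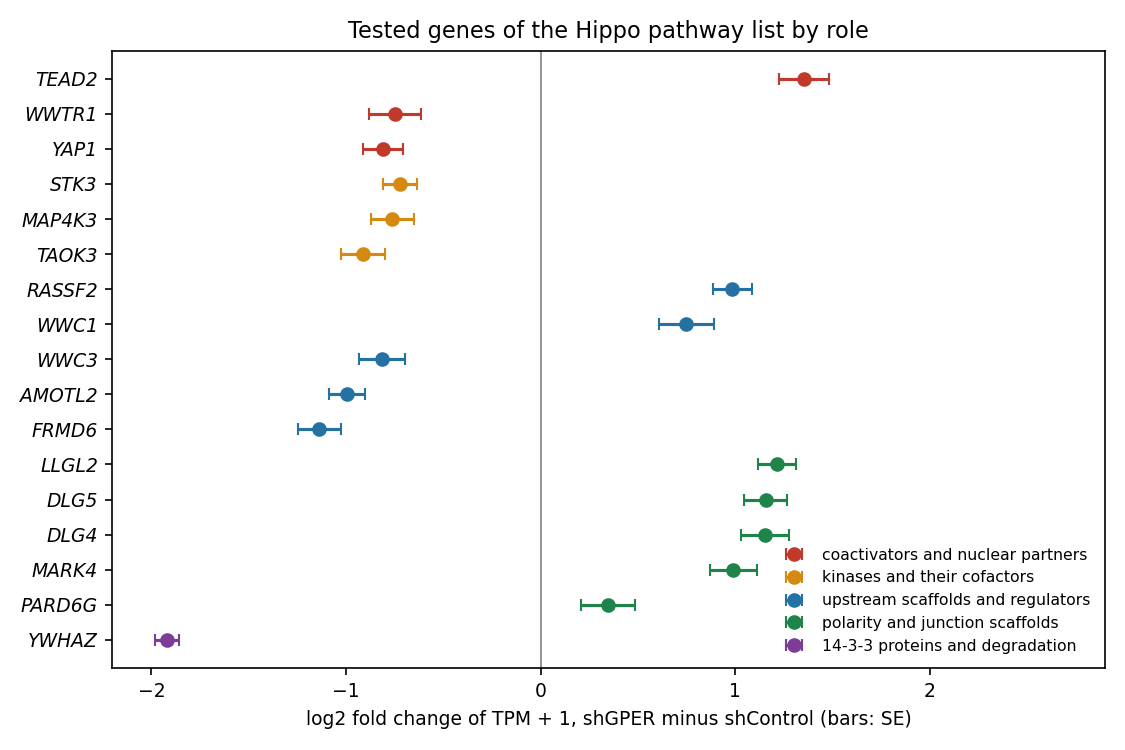
Log2 fold change of TPM + 1, shGPER minus shControl, with SE, for the 17 tested genes of the Hippo pathway list, grouped by role. Genes of the class of kinases and their cofactors lie below 0 and polarity genes above 0 as fitted. With the GC trend removed none of the kinase class was called lower, beside 31.1% of all genes in that fit. Of the 5 polarity genes 3 were then called higher, beside 31.5% of all genes.

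A wider list of 105 Hippo pathway genes had 20 in the tables, of which 17 were tested, 9 lower and 8 higher, with a median log2 change of -0.72 beside -0.49 over all 1651 tested genes, of which 50.6% were lower and 47.8% higher. With the GC trend removed, 5 were lower and 7 higher, beside 31.1% lower and 31.5% higher of all genes in that fit. The median turned to 0.16, beside 0.01 over all tested genes. Of the 17, 7 are not among the 10 genes above, 2 lower and 5 higher. Of these 5, RASSF2 and PARD6G met the filter through the group where they were higher, as given below. RASSF2 is also among the 7 higher with the GC trend removed. MAP4K3, a kinase that can act on LATS kinases in parallel to the MST kinases, was at 4.70 ± 0.539 TPM in shGPER and 8.66 ± 0.711 TPM in shControl libraries (SD, n = 3 each; log2 fold change -0.76). All 3 tested genes of the list's class of kinases and their cofactors thus fell, but with the GC trend removed none was called lower and STK3 was called higher. WWC3, a relative of KIBRA, fell to 5.73 ± 0.955 TPM in shGPER, against 10.8 ± 0.413 TPM in shControl libraries (SD, n = 3 each; log2 fold change -0.81), whereas WWC1 rose.

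All 5 tested polarity genes, DLG5 among them, were higher, beside 47.8% of all tested genes. Their GC content ran from 51.8% (PARD6G) to 63.5% (LLGL2), a range where most called genes were higher. With the GC trend removed 3 stayed called, beside 31.5% of all genes called higher in that fit. Among these LLGL2 was at 0.18, and by the longest coding transcript it was not called (0.17, limma, adjusted p = 0.0547). LLGL2, of the Lethal giant larvae family that acts with Scribble and discs-large proteins, was at 48.0 ± 5.35 TPM in shGPER and 20.1 ± 1.72 TPM in shControl libraries (SD, n = 3 each; log2 fold change 1.21). DLG4, a discs-large protein best known from synapses, was at 10.5 TPM in shGPER and 4.20 TPM in shControl libraries. MARK4, a microtubule-affinity regulating kinase, was at 17.04 TPM in shGPER and 8.01 TPM in shControl libraries. With the GC trend removed MARK4 was not called (log2 fold change 0.05, limma, adjusted p = 0.688). By the longest coding transcript it was not called either (0.19, limma, adjusted p = 0.124). PARD6G, of the PAR complex, overlapped between the groups at 1.43 ± 0.341 TPM in shGPER and 0.907 ± 0.194 TPM in shControl libraries (SD, n = 3 each; log2 fold change 0.35; limma, adjusted p = 0.0386). It reached 1 TPM in all 3 shGPER libraries but in shControl only in library 2 (1.13 TPM), so it met the filter through the group where it was higher. RASSF2, which binds MST kinases through its SARAH domain, was at 2.38 TPM in shGPER and 0.71 TPM in shControl libraries (log2 fold change 0.99). It was under 1 TPM in all shControl libraries and passed the filter through the shGPER libraries alone, which fixed its direction. RASSF4, DCHS1 and MARK1 were below the level for testing, and no gene of the STRIPAK phosphatase complex was in the tables.

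Of 22 YAP/TAZ target genes 3 were in the tables, and all 3 fell. Besides AMOTL2 these were NT5E, the surface enzyme CD73, at 1.46 ± 0.235 TPM in shGPER and 3.81 ± 0.823 TPM in shControl libraries, and ASAP1, an ARF GTPase-activating protein, at 23.3 ± 1.40 TPM in shGPER and 41.8 ± 1.71 TPM in shControl libraries (SD, n = 3 each). Their median log2 change was -0.96. With the GC trend removed the median was -0.18, and ASAP1 (log2 fold change -0.02; limma, adjusted p = 0.855) and NT5E (-0.18; limma, adjusted p = 0.321) were not called. With 3 genes of a list of 22, and 50.6% of all tested genes lower, this is a description of those genes. The annotation of the tables assigns 25 genes to the KEGG Hippo pathway map, which also holds Wnt and TGF-beta family genes. Of the 20 tested, 7 fell and 13 rose, with a median log2 change of 0.80, beside 50.6% lower and 47.8% higher of all tested genes. Of the 13, TCF7L1, NKD2 and WNT5B passed the filter through the shGPER libraries alone, which fixed their direction. PARD6G, also among the 13, met it through the group where it was higher, as given above. With the GC trend removed 5 were lower and 10 higher, with a median of 0.19, beside 31.1% lower and 31.5% higher of all genes in that fit. The 10 include TCF7L1, whose direction the filter fixed, and TEAD2, DLG5, WWC1 and STK3, which are members described above. With the GC content of the longest coding transcript, LLGL2, STK3 and TCF7L1 were among those no longer called higher, and WWTR1 was no longer called lower. This last list and the genes TCF7L1, NKD2 and WNT5B were taken up after the values were seen.

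**Figure D4:**
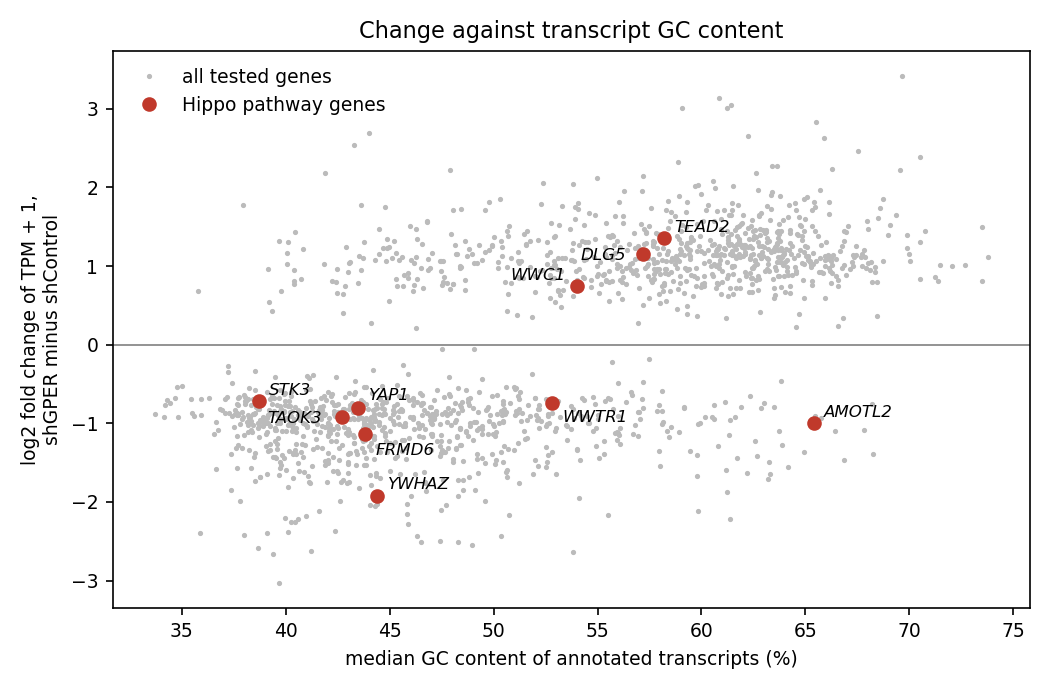
Log2 fold change of TPM + 1, shGPER minus shControl, against the median GC content of a gene's transcripts, for all tested genes (grey) and the 10 Hippo pathway genes (red, named). Genes of low GC content mostly fell and those of high GC content mostly rose; AMOTL2, at 65.4%, is a gene of high GC content that fell.

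Direction in these libraries went with the base composition of transcripts, and the 10 genes were compared with others of like composition. Called genes were divided into 10 bins of equal size by the median GC content of their annotated transcripts. YAP1 (43.5% GC), TAOK3 (42.7%), FRMD6 (43.8%) and YWHAZ (44.4%) were in bin 3, counted from the lowest GC content, where 86.2% of genes were lower with a median log2 change of -0.96. STK3 (38.7%) was in bin 1, where 95.6% were lower, with a median of -0.91. TEAD2 (58.2%) and DLG5 (57.2%) were in bin 7, where 76.9% were higher, with a median of 0.96. WWC1 (54%) and WWTR1 (52.8%) were in bin 6, where 44.4% were lower and 55.6% higher, with a median of 0.69. AMOTL2 was in bin 10, where 5.62% were lower, although the GC content of its longest coding transcript is 56.7%, within the range of bin 7. YWHAZ thus lay well below the median of its bin, YAP1, TAOK3 and STK3 near or above theirs, and AMOTL2 and WWTR1 opposite to theirs. The bin of WWTR1 held many genes of each direction, and its longest coding transcript has 40.9% GC, within the range of bin 2.

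**Figure D5:**
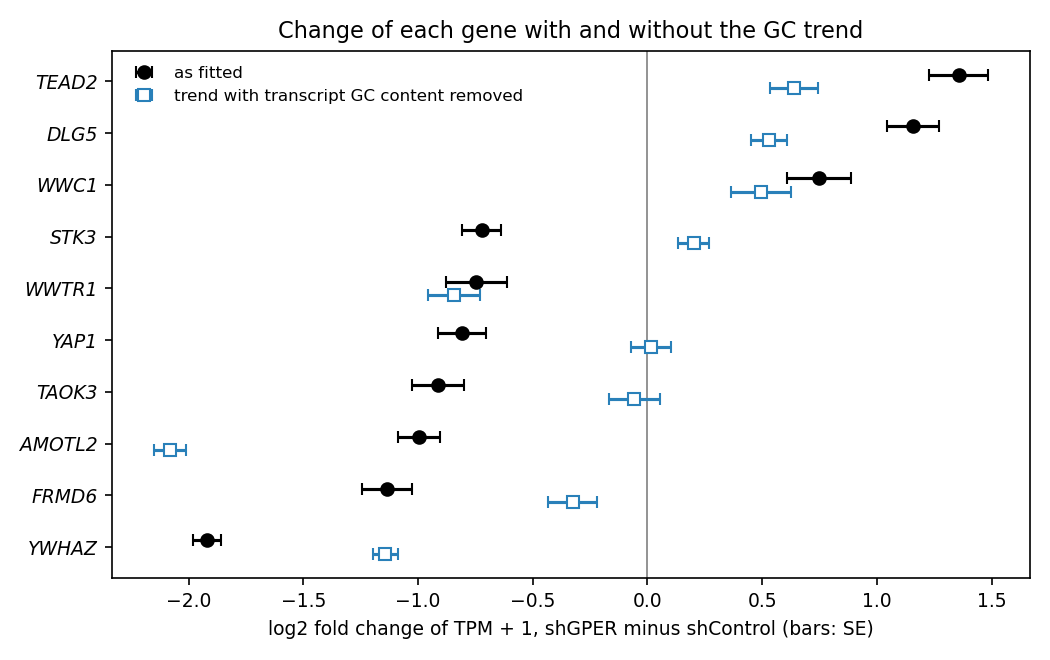
Log2 fold change of TPM + 1, shGPER minus shControl, with SE, as fitted (filled) and after removal of each library's trend with transcript GC content (open). YAP1 and TAOK3 move close to 0, STK3 crosses it, and AMOTL2 moves further below it.

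When each library's trend with GC content was removed by a spline over all tested genes, 62.6% of genes were called, 31.1% lower and 31.5% higher. Of the 10 genes 4 were lower and 4 higher. AMOTL2 (log2 fold change -2.08), YWHAZ (-1.14), WWTR1 (-0.84) and FRMD6 (-0.33) were lower, and TEAD2 (0.64), DLG5 (0.53), WWC1 (0.49) and STK3 (0.20; limma, adjusted p = 0.0332) were higher. YAP1 (0.02; limma, adjusted p = 0.895) and TAOK3 (-0.06; limma, adjusted p = 0.682) were not called. The value of WWTR1 rests on how its GC content is taken, since the median over its 12 annotated transcripts is 52.8% but its longest coding transcript, of 5030 nt, has 40.9%. With the GC content of the longest coding transcript in place of the median, 60.9% of genes were called and WWTR1 was no longer lower (0.11; limma, adjusted p = 0.495). YAP1 (-0.06), TAOK3 (-0.24) and STK3 (0.17; limma, adjusted p = 0.0616) were not called, and AMOTL2 (-1.60), YWHAZ (-1.06), FRMD6 (-0.30), TEAD2 (0.60), DLG5 (0.57) and WWC1 (0.39) kept their calls. Thus 6 of the 10 genes were called in the same direction in all 3 fits, and neither coactivator was among them. The share of all genes for which this held was not computed. Since the 2 fits without the GC trend called 62.6% and 60.9% of all genes, the count is a description of the 10 genes. The spline was fitted to a table made up mostly of genes that separated the groups, so it can also remove a difference that is no bias, and a gene that lost its call may still differ.

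The genes whose values over the 6 libraries were most like those of YAP1 were GLCE, SLC39A10 and PAAF1 (Pearson r = 0.995, 0.994 and 0.994 on log2(TPM + 1), n = 6 libraries), among the 1015 genes that averaged 5 TPM or more. Those most like TEAD2 were MYPOP, ISYNA1 and TRIM5 (r = 0.999, 0.998 and 0.997). Such values describe a table in which most genes differ between the groups, since 56.7% of the 1015 genes had r over 0.9 with YAP1 and 37.1% with TEAD2.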

How the data were processed

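The authors deposited TPM per gene for each library, per the file names and headers. RSEM, HISAT2, fastp and the build hg38 are named, per the submitters' processing notes, without versions, order or settings. The libraries were made with a stranded mRNA kit, per the labels' protocols. TPM are relative to the library total, so a change in abundant transcripts shifts all other genes, and no count model or detection limit could be used. From these values, log2(TPM + 1) of the 1651 genes with at least 1 TPM in at least 3 of 6 libraries (477 left out) was compared between shGPER and shControl by limma (version 3.58.1, R 4.3.3), with an intensity trend and no covariate. The p-values were adjusted over all tested genes by Benjamini and Hochberg and a threshold of 0.05; the fit was tested on simulated data. On this scale low genes show smaller fold changes than on TPM. Levels and ratios were computed on TPM with scipy 1.17.1, numpy 2.4.6 and pandas 2.3.3 under Python 3.11.15, and matplotlib 3.10.9 drew the figures. Positions, GC content and shared 31-nt words come from GENCODE release 29 (GRCh38), where 2078 of 2128 identifiers matched. The members and lists were chosen with earlier results of these data known. Named are GPER1, the 10 genes, up to 8 tested genes of each list by smallest p, and the 3 genes most like YAP1 and TEAD2; WWC3, MAP4K3, MARK4, PARD6G and genes below the level for testing were named after their values were seen. Alternatives were other pseudocounts, filters, scalings and variance priors, a replicate block, removal of the GC trend and leaving out each library; the GC content of the longest coding transcript, and the score and the span of levels without YWHAZ, were added after the data were seen.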

Additional observations from a re-analysis of the deposited data

How the results depend on the processing

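Except with the GC trend removed, each of the 10 genes kept its direction and its call under all alternatives that tested it; WWC1 was left out by a filter of 5 TPM. Median centring raised every log2 change by 0.153, and no direction among the 10 genes turned. With the GC trend removed, 4 of the 10 genes were called lower in place of 7, 5 in place of 9 of the wider Hippo list and 1 in place of 3 of the YAP/TAZ targets. Of all genes in that fit 31.1% were lower, in place of 50.6%. YAP1 (0.016) and STK3 (0.20) turned sign. With the GC content of the longest coding transcript these counts were 3, 4 and 1, the wider list had 5 genes called higher in place of 8, and STK3 (0.17) and WWTR1 (0.11) turned sign. A filter of 5 TPM also left 5 genes of that list called higher, since it tests fewer genes. The difference between coactivators and restraining components, 0.04, was -0.025 with a pseudocount of 0.1, -0.24 with DLG5 counted, -0.17 without YWHAZ and 0.46 with the GC content of the longest coding transcript. Leaving out each library in turn left 7 and 3 of the 10 genes lower and higher, and 7 to 8 genes of the wider list higher. For the difference between coactivators and restraining components it gave -0.012 to 0.11, the lowest without shGPER library 2; the cause of these shifts was not tested beyond the genes named. Same-numbered libraries did not deviate together (r = 0.0327, -0.0872 and 0.0127 over genes for numbers 1, 2 and 3). With 3 libraries per group this cannot show whether they share a culture or batch, which the labels do not say. With the replicate block 7 of the 10 genes were lower and 3 higher, as without it. Depth is unknown, so no counting error is given for low values such as those of WWC1.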

Other observations

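Genes that relay signals from receptors such as GPER1 towards YAP were described from a list of 14, of which 4 were in the tables and all 4 were called, 2 lower and 2 higher, beside 98.4% of all tested genes called, 50.6% lower and 47.8% higher. EGFR, the epidermal growth factor receptor, which GPER1 is known to transactivate in breast cancer cells, was at 12.82, 14.97 and 13.05 TPM in the shGPER libraries and at 38.42, 39.33 and 40.30 TPM in the shControl libraries. Its log2 fold change was -1.47 (SE 0.08; limma, adjusted p = 6.03e-07), and -1.74 with the GC trend removed. A pair of guanine nucleotide exchange factors that G proteins act on went opposite ways. ARHGEF12, also called LARG, was at 15.8 ± 1.90 TPM in shGPER and 34.1 ± 0.677 TPM in shControl libraries, and ARHGEF1 at 98.1 ± 11.6 TPM in shGPER and 49.5 ± 1.52 TPM in shControl libraries (SD, n = 3 each). SRC, a tyrosine kinase, was at 6.67 ± 0.904 TPM in shGPER and 2.96 ± 0.655 TPM in shControl libraries (SD, n = 3 each). With the GC trend removed, ARHGEF12 (log2 fold change -0.15), ARHGEF1 (-0.06) and SRC (0.15) were not called, beside 62.6% of all genes called in that fit. With the GC content of the longest coding transcript, ARHGEF12 was called lower (-0.24, limma, adjusted p = 0.0235) and EGFR was at -1.05. ARHGEF1 (-0.09) and SRC (0.15) were again not called.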
